A study of Macaca mulatta with 9 samples.

Results

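Ubiquitin-conjugating enzymes, called E2 enzymes, were followed in whole blood of rhesus macaques. The 35 members are the rows of the deposited expression table, out of 24371 genes, whose symbol begins with UBE2 and a further letter. The name chose them, not their values. All 9 animals are labelled wild type (WT), and every library is total RNA of whole blood, 1 animal each. The animals had been assigned at random to injection of PBS (the vehicle, 3 animals, described as Old in the labels), of extracellular vesicles labelled FBMSC (FBMSC_EV, 3 animals) or of extracellular vesicles of antler blastema progenitor cells, ABPC (ABPC_EV, 3 animals). The sources used here give no dose, duration, sampling time or age, and do not say what FBMSC stands for.

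Ubiquitin is a small protein that cells attach to other proteins, often to mark them for the proteasome. An E1 enzyme activates it, an E2 enzyme carries it on a cysteine, and an E3 ligase chooses the substrate. Each E2 works with its own set of ligases, and some E2 enzymes carry a related modifier such as NEDD8 or ISG15. Reticulocytes, the youngest red cells in blood, no longer have a nucleus and use ubiquitin to clear proteins and organelles. UBE2H, UBE2O and UBE2B are E2 enzymes known to be abundant in them, and are called the reticulocyte E2 enzymes below. UBE2H is the partner of the CTLH ligase, UBE2O is a large enzyme that joins E2 and E3 activity and removes ribosomal proteins and unpaired globin chains, and UBE2B is 1 of 2 close relatives of yeast RAD6.

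The values are per-million values that behave like TPM, so levels of different genes can be compared per length. Because each library sums to a fixed total, the listed value of any gene also moves with the share taken by hemoglobin RNA. HBB, HBA and HBA1 together took 88.2% to 92.7% of that total in the PBS libraries, 82.3% to 87.6% under FBMSC_EV and 70.9% to 82.4% under ABPC_EV. Values are therefore given as deposited and after median-ratio scaling, in which each library is divided by its median ratio to the average library over genes above 0 in all 9. The factors ran from 0.326 in PBS replicate 1 to 2.49 in ABPC_EV replicate 3. Recovered reads outside 33 red cell genes numbered 3.05 to 5.19 M per PBS library (M, 1e6 reads), 5.28 to 7.13 M with FBMSC_EV and 7.09 to 8.37 M with ABPC_EV. In whole blood, fewer cells of a type and less RNA per cell cannot be told apart. Every marker list of the blood cells held transcripts. Of the red cell, neutrophil, monocyte, T cell, B cell, NK cell and platelet markers with a deposited row, 0 stayed below 1 in every library. Without a row were HBA2, HBD and GYPB (red cell), FCN1 (monocyte), TRAT1 (T cell) and PF4 (platelet). Of the markers with a row, 9 of 10 for neutrophils and 4 of 5 for platelets reached 1 in 3 or more libraries.

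PBS replicate 3 stood apart from the other PBS libraries in the make-up of the family. UBE2H, UBE2O and UBE2B made up 27.5% and 30.2% of the summed UBE2 level in PBS replicates 1 and 2, but 15.8% in PBS replicate 3. The summed level of the red cell genes, which is nearly all hemoglobin RNA, did not set replicate 3 alone apart. After scaling they summed to 2855494, 1917024 and 1170711 in replicates 1 to 3, a fall over all 3 libraries. As deposited they summed to 931029, 889351 and 886100. HBB, HBA and HBA1 took 92.7%, 88.2% and 88.2% of the total in these libraries, and all listed red cell genes 93.1%, 88.9% and 88.6%. The sums therefore do not show how the other red cell genes stood in replicate 3. The scaled changes of UBE2H, UBE2O and UBE2B between ABPC_EV and PBS are given with and without PBS replicate 3.

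In blood the family was led by UBE2D3, which works with many ligases and often places the first ubiquitin on a substrate. Averaged over the groups, its level per length was followed by those of UBE2Q1, UBE2H, UBE2O, UBE2L3 and UBE2B. As deposited, UBE2D3 stood at 14.4, 21.4 and 25.0 in the PBS libraries (replicates 1 to 3), at 54.8, 37.0 and 26.9 under FBMSC_EV and at 48.8, 72.0 and 69.4 under ABPC_EV. It ranked first in each group. By mean level UBE2O had rank 2 under PBS, rank 4 under FBMSC_EV and rank 6 under ABPC_EV, while UBE2H had ranks 3, 2 and 3. UBE2O and UBE2H did not differ beyond their spread under PBS, with 13.7 ± 5.83 and 11.7 ± 1.85 (SD, n = 3 each). UBE2L6, the E2 enzyme of ISG15, had rank 12 under PBS and ranks 5 and 7 under FBMSC_EV and ABPC_EV.

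At the other end, 5 members did not reach a value of 1 in 3 libraries and were not tested. UBE2C and UBE2T serve mitosis and the repair of DNA crosslinks. UBE2C had 44 recovered reads over all libraries and UBE2T 54, with at most 12 in any library. UBE2Q2L had 87 reads, of which 28 lay in PBS replicate 3 and 29 in ABPC_EV replicate 1. UBE2L5 had 11 reads and UBE2QL1 had 2. UBE2QL1 had 0 reads in 7 libraries; a count of 0 allows up to 3 reads, or a per-million value of 0.0513 to 0.105 depending on the library. These limits cover counting error only. The remaining 30 members passed the filter, and the median of the highest over the lowest library after scaling was 1.91 for them, against 2.42 for the 10175 tested genes above 0 in every library.

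The first comparison asks how the family differed between animals given ABPC_EV and vehicle. As deposited, 29 of the 30 tested members rose, and UBE2O was the exception. This is close to the background, since 90.9% of all 10596 genes tested rose and 0.0566% fell. The median log2 change of the 30 was 1.47, against 1.41 for all genes. For 28 of the 30, every ABPC_EV library lay above every PBS library, as for 85.4% of all genes, and 0 lay wholly below (0.0661%). After median-ratio scaling 0 members passed, and the background was likewise 0 higher and 0 lower. All 3 reticulocyte E2 enzymes then lay at the lower end of the family: the 3 lowest of the 30 scaled log2 changes were those of UBE2O, UBE2H and UBE2B. They had been singled out with earlier results of these data known, so their place in the order is a description. All tests of single genes are limma on log2(value + 1), adjusted by Benjamini-Hochberg over all genes tested, with a threshold of 0.05.

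**Figure D1:**
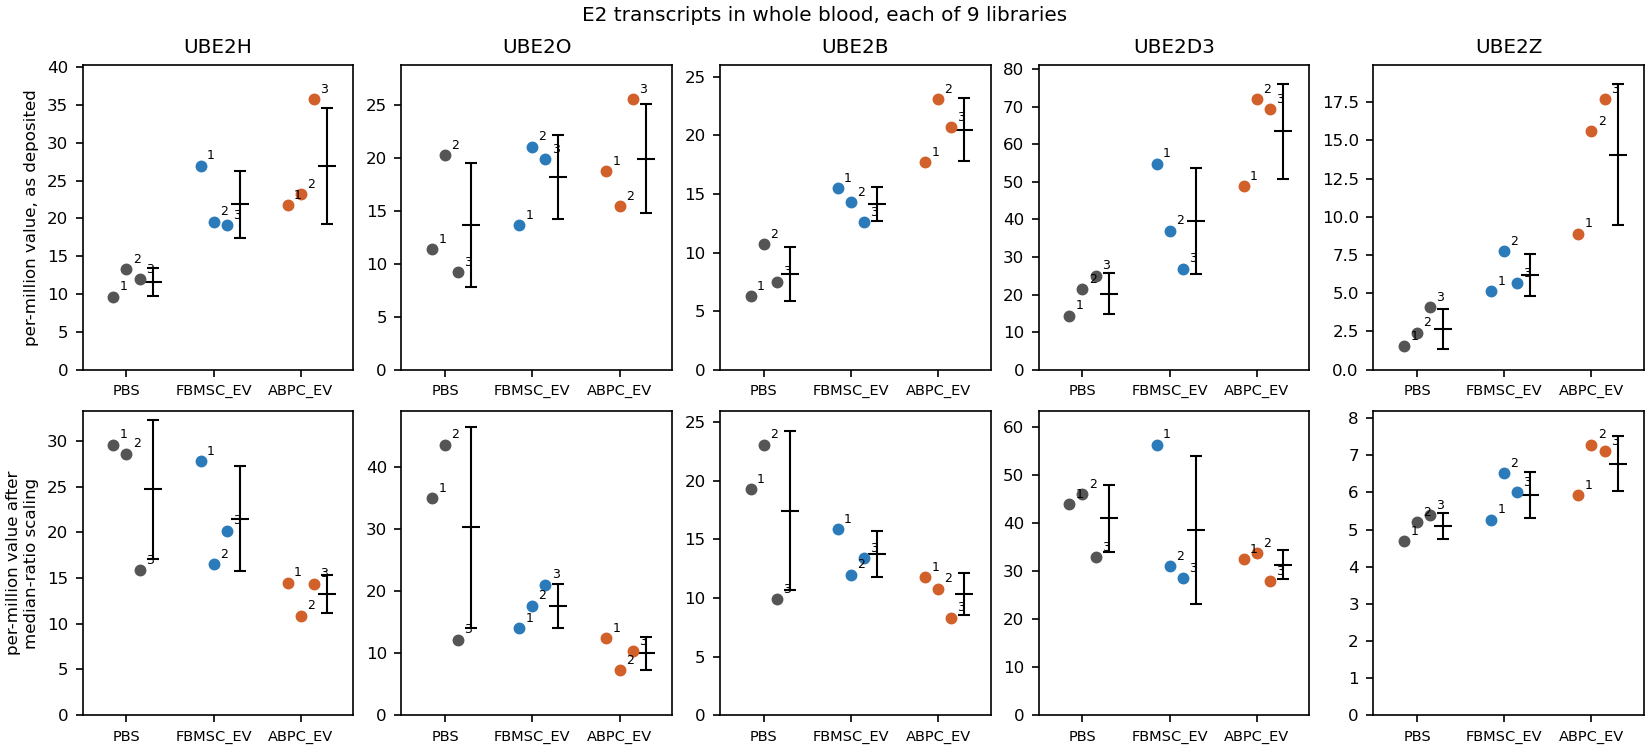
Per-million values of UBE2H, UBE2O, UBE2B, UBE2D3 and UBE2Z in each of 9 libraries, as deposited (top) and after median-ratio scaling (bottom). Points are libraries numbered by replicate, and black bars show the mean and SD of 3 libraries. As deposited, UBE2H, UBE2B, UBE2D3 and UBE2Z were higher in all ABPC_EV than in all PBS libraries, and UBE2O overlapped; after scaling, PBS replicate 3 lay near the ABPC_EV libraries for UBE2H, UBE2O and UBE2B.

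UBE2O was listed at 11.4, 20.3 and 9.25 in the PBS libraries, at 13.7, 21.1 and 19.9 under FBMSC_EV and at 18.8, 15.5 and 25.6 under ABPC_EV. The 3 groups overlapped. Scaled, the values were 35.1, 43.7 and 12.2 under PBS, 14.1, 17.7 and 21.1 under FBMSC_EV, and 12.5, 7.24 and 10.3 under ABPC_EV. PBS replicates 1 and 2 stood above all other libraries on this scale, and PBS replicate 3 lay just under the highest ABPC_EV library. Between ABPC_EV and PBS the log2 change was 0.56 as deposited (SE 0.41, adjusted p = 0.198) and -1.36 scaled (SE 0.42, 95% interval -2.31 to -0.42, adjusted p = 0.275). Of all genes tested, 1.7% had a lower scaled change. Without PBS replicate 3 the scaled change was -1.90 and passed the threshold (adjusted p = 0.0281), as 1.55% of all genes then did as lower. That library was set apart by its low share of UBE2H, UBE2O and UBE2B, so this fit is not independent of the choice. The scaled change was -1.18 without PBS replicate 1 (adjusted p = 0.64) and -1.02 without PBS replicate 2 (adjusted p = 0.633). UBE2O also had the widest spread of the 30, with 6.03 times as much in its highest as in its lowest library after scaling.

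UBE2H was listed at 9.65, 13.3 and 12.0 under PBS, at 27.0, 19.6 and 19.1 under FBMSC_EV and at 21.8, 23.2 and 35.8 under ABPC_EV, so that all vesicle libraries lay above all PBS libraries. Scaling turned this order round for ABPC_EV only, while FBMSC_EV and PBS libraries then overlapped. The scaled values were 29.6, 28.6 and 15.9 under PBS, 27.8, 16.5 and 20.2 under FBMSC_EV, and 14.5, 10.9 and 14.4 under ABPC_EV, where all ABPC_EV libraries lay below all others. As deposited UBE2H rose under ABPC_EV by a log2 change of 1.12 (SE 0.40, adjusted p = 0.0117), and this call was lost without ABPC_EV replicate 3 (0.90, adjusted p = 0.0802). Scaled, its log2 change was -0.81 (SE 0.29, 95% interval -1.46 to -0.16, adjusted p = 0.365), and 5.8% of all genes tested were lower. Without PBS replicate 3 the scaled change of UBE2H was -1.09 (adjusted p = 0.0991), a fit that is likewise not independent of the choice. It was -0.67 without PBS replicate 1 (adjusted p = 0.715) and -0.68 without PBS replicate 2 (adjusted p = 0.713).

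UBE2B was listed at 6.28, 10.7 and 7.51 under PBS, at 15.5, 14.3 and 12.6 under FBMSC_EV and at 17.7, 23.1 and 20.7 under ABPC_EV. The 3 groups did not overlap as deposited, with PBS lowest and ABPC_EV highest. Scaled, UBE2B stood at 19.3, 23.1 and 9.93, at 15.9, 12.0 and 13.4, and at 11.8, 10.8 and 8.33 in the same order of groups, and PBS replicate 3 fell among the ABPC_EV libraries. Its log2 change under ABPC_EV against PBS was 1.25 as deposited (SE 0.38, adjusted p = 0.00431) and -0.64 scaled (SE 0.30, 95% interval -1.30 to 0.02, adjusted p = 0.498). Without PBS replicate 3 the scaled change of UBE2B was -0.98 (adjusted p = 0.09), again not independent of the choice. It was -0.54 without PBS replicate 1 (adjusted p = 0.771) and -0.41 without PBS replicate 2 (adjusted p = 0.873). Its paralog UBE2A, the other RAD6 relative, had a scaled log2 change of -0.13 (95% interval -0.53 to 0.28, adjusted p = 0.838). The sequences of UBE2A and UBE2B were not compared here, and the counting of any reads that match both is not described. The ratio of UBE2B to UBE2A within a library, which no scaling changes, was 2.04, 2.70 and 0.927 in the PBS libraries, 1.78, 1.60 and 1.30 under FBMSC_EV, and 1.26, 1.28 and 1.02 under ABPC_EV. UBE2B thus exceeded UBE2A in every library but PBS replicate 3.

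The share of the reticulocyte E2 enzymes in the family is taken within a library, so scaling does not change it. UBE2H, UBE2O and UBE2B made up 24.5% ± 7.64 of the summed UBE2 level in PBS libraries (SD, n = 3), 20.8% ± 1.73 with FBMSC_EV (n = 3) and 15.7% ± 2.43 with ABPC_EV (n = 3). The ABPC_EV libraries were at 17.7%, 13.0% and 16.4%, all below the FBMSC_EV libraries at 20.3%, 19.3% and 22.7%, but on both sides of PBS replicate 3. On the log2(value + 1) scale of the values as deposited, the mean of the 3 exceeded the mean of the other 27 tested members by 1.54 ± 0.54 in PBS libraries, 1.45 ± 0.12 with FBMSC_EV and 1.04 ± 0.19 with ABPC_EV (SD, n = 3). The difference between ABPC_EV and PBS was -0.49, and it was -0.79 without PBS replicate 3 and -0.26 without PBS replicate 2. Between ABPC_EV and FBMSC_EV it was -0.41, and between FBMSC_EV and PBS -0.08. Because 1 is added before the logarithm this measure does depend on the scale, and after scaling the differences were -0.77, -0.50 and -0.28 in the same order. No p is given for a score over chosen members.

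**Figure D2:**
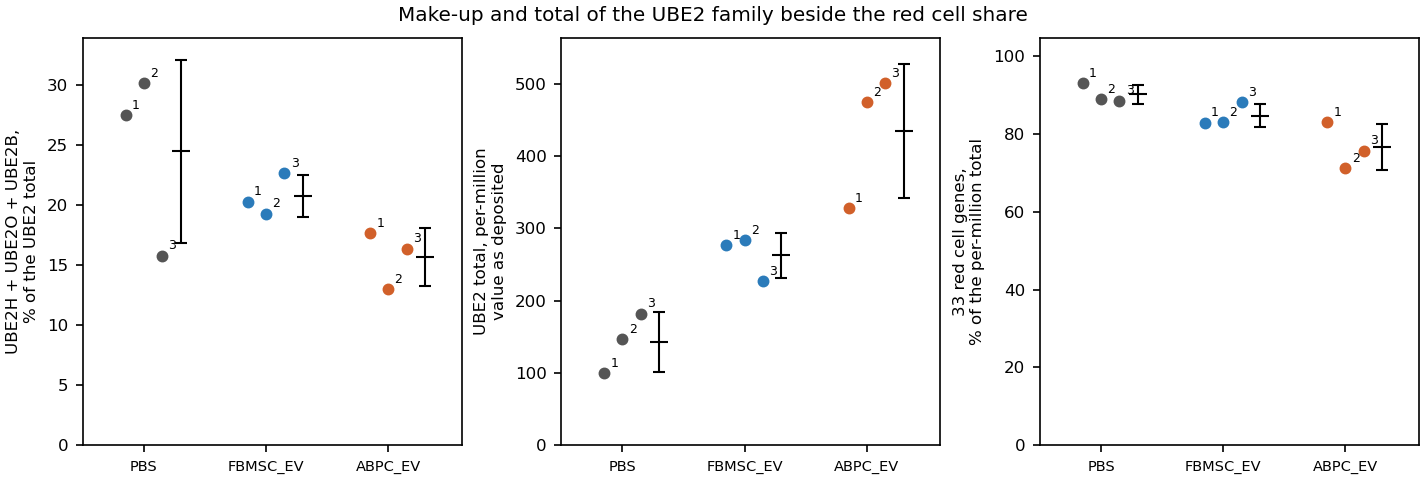
Left, the share of UBE2H, UBE2O and UBE2B in the summed UBE2 level; middle, that sum as a per-million value; right, the share of 33 red cell genes in each library's total. Points are libraries numbered by replicate, and bars show the mean and SD of 3 libraries. The ABPC_EV libraries held 13.0% to 17.7% of the family in these 3 enzymes, and PBS replicates 1 and 2 held 27.5% and 30.2%.

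The red cell RNA that moved beside these enzymes was given by 36 fixed marker genes, of which 33 were in the table and tested. After scaling, 0 of the 33 passed the threshold under ABPC_EV against PBS. An unadjusted p under 0.05 by limma was reached by 26 of them, and by 1080 of all 10596 genes. The log2 change was negative for 31 of the 33, with a median of -1.48. UBE2O at -1.36 lay near that median, and UBE2H at -0.81 and UBE2B at -0.64 lay between it and the 0.00 of all genes. Summed over the 33 genes, the scaled level was 1170711 to 2855494 under PBS, 697999 to 931727 under FBMSC_EV and 304462 to 552371 under ABPC_EV. This sum is nearly all HBB, HBA and HBA1. Their mean share of the library was 89.7% under PBS and 76.2% under ABPC_EV, against 90.2% and 76.6% for all 33 genes. The part of red cell RNA in the values of the 3 enzymes was not tested.

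With the 33 red cell genes removed and the remainder rescaled, the median log2 change of all genes shifted to 0.74, and changes are read against that shift. UBE2O then had a log2 change of -0.65, UBE2H -0.07 and UBE2B 0.10 (adjusted p = 0.203, 0.837 and 0.759). The other 27 members ranged from 0.10 for UBE2F to 1.16 for UBE2Z, and the median of all 30 was 0.53. All 3 reticulocyte E2 enzymes thus remained below the median of all genes, and the sign against 0 differed from the median-ratio scale for UBE2B only. With TMM factors the 3 had -1.32, -0.77 and -0.60.

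**Figure D3:**
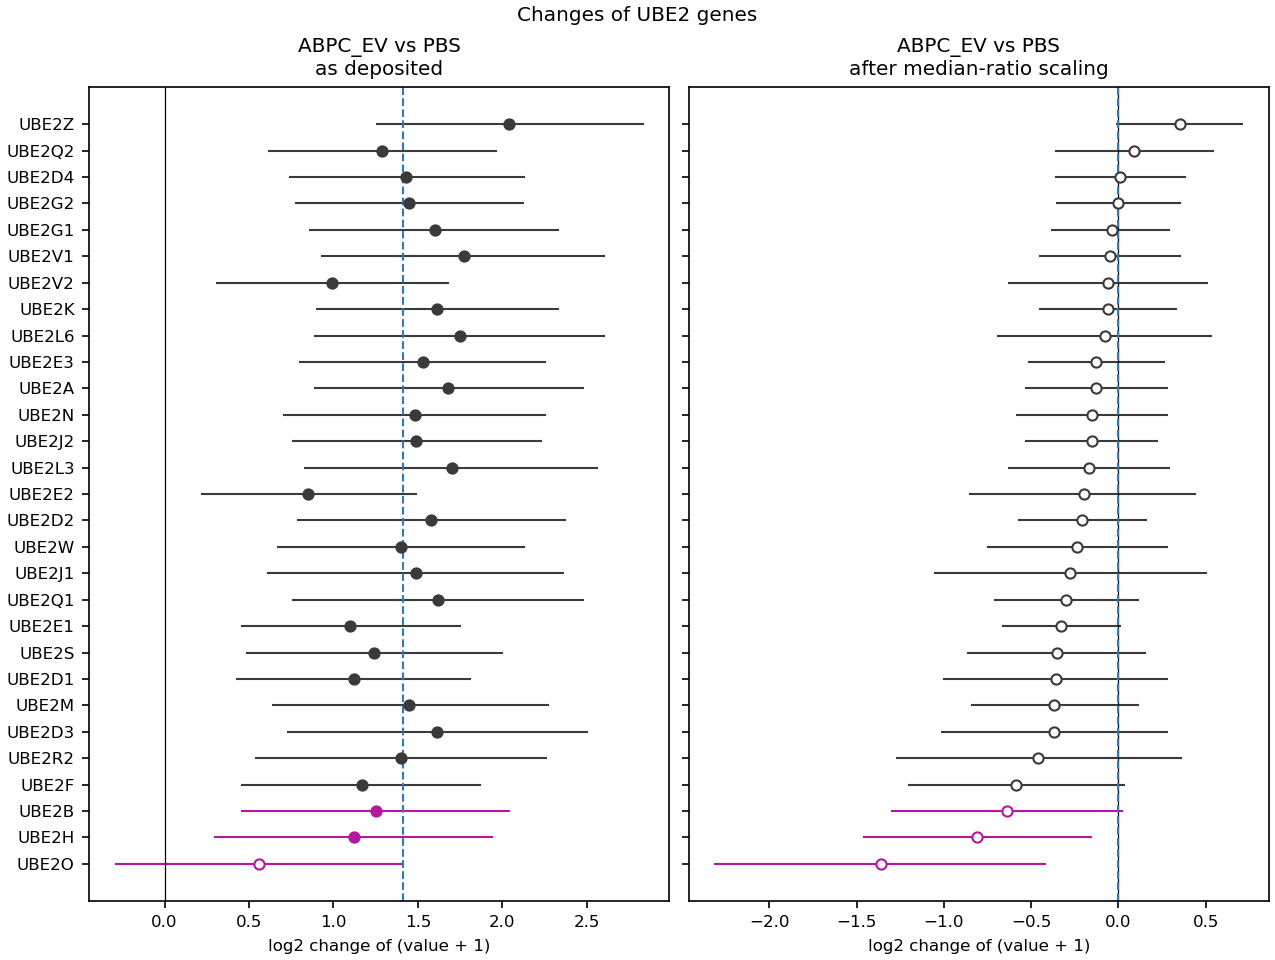
Log2 change of (value + 1) between ABPC_EV and PBS for 29 of the 30 tested UBE2 genes, as deposited (left) and after median-ratio scaling (right), with 95% intervals. Filled points passed an adjusted p of 0.05, magenta marks UBE2H, UBE2O and UBE2B, and the dashed line is the median of all genes tested (1.41 and 0.00). As deposited UBE2O alone of those drawn did not pass; scaled, 0 passed and the interval excluded 0 for UBE2O and UBE2H.

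After scaling, 26 of the 30 log2 changes under ABPC_EV were negative, as were 5273 of all 10596 genes tested. The median was -0.19, against 0.00 for all genes. An unadjusted p under 0.05 by limma was reached by 2 members, UBE2O and UBE2H, and by 1080 of all 10596 genes. By limma-voom on recovered reads 2 members reached it, beside 963 of all 10594 genes, and 0 members were called. The libraries of ABPC_EV and PBS did not overlap for 5 members: UBE2H, UBE2Q1, UBE2D2 and UBE2E1 were lower in all ABPC_EV libraries (7.51% of all genes tested were) and UBE2Z was higher in all (6.45%). These 4 are 13.3% of the 30 members.

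UBE2Z and UBE2Q2 were among the 3 members with the highest scaled changes. UBE2Z, which takes ubiquitin from the E1 enzyme UBA6, was listed at 1.53, 2.42 and 4.07 under PBS, 5.12, 7.77 and 5.68 under FBMSC_EV and 8.90, 15.6 and 17.7 under ABPC_EV, with no overlap between the groups. It rose under ABPC_EV as deposited by a log2 change of 2.04 (SE 0.38, adjusted p = 0.000417), the highest of the family. Scaled, its values were 4.69, 5.21 and 5.38, then 5.27, 6.52 and 6.01, then 5.93, 7.29 and 7.12, and the log2 change was 0.35 (95% interval -0.01 to 0.71, adjusted p = 0.493). Every ABPC_EV library was still above every PBS library for UBE2Z.

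UBE2Q2 was listed at 0.456, 0.673 and 1.36, at 2.14, 2.33 and 1.46, and at 3.27, 2.20 and 5.18 in PBS, FBMSC_EV and ABPC_EV libraries. Scaled, its values were 1.40, 1.45 and 1.80, then 2.20, 1.95 and 1.54, then 2.18, 1.03 and 2.09, with overlap throughout and a log2 change of 0.09 (95% interval -0.36 to 0.54). UBE2D3, the member with the highest level, was at 44.0, 46.1 and 33 scaled under PBS, 56.4, 31.1 and 28.5 under FBMSC_EV, and 32.5, 33.7 and 27.9 under ABPC_EV, and the groups overlapped (log2 change -0.37, 95% interval -1.01 to 0.28, adjusted p = 0.709).

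Among the E2 enzymes that work with many ligases or start chains (UBE2D1 to UBE2D4, UBE2E1 to UBE2E3, UBE2L3, UBE2R2 and UBE2W), all 10 rose as deposited, by log2 changes of 0.85 to 1.70, beside the 90.9% of all genes that rose. Scaled, 9 of the 10 were negative, from -0.46 to 0.01, and 0 passed. UBE2L3, which serves ligases of the HECT and RBR types, rose from 6.81 ± 3.01 to 24.2 ± 8.81 as deposited (SD, n = 3 each), with a scaled change of -0.17. UBE2R2, a partner of cullin-based ligases, had the lowest scaled change of these, -0.46 (95% interval -1.27 to 0.36). UBE2E2 rose by 0.85 (adjusted p = 0.0128) on 11 to 72 recovered reads per library, and lost its call when either of 2 libraries was left out, with 0.62 (adjusted p = 0.115) for PBS replicate 2 and 0.66 (adjusted p = 0.0781) for ABPC_EV replicate 2.

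Of the chain builders, UBE2N forms a pair with the inactive E2 variants UBE2V1 and UBE2V2 in signalling and DNA repair. UBE2K, UBE2N, UBE2V1, UBE2V2 and UBE2S all rose as deposited, by 0.99 to 1.77, beside the 90.9% of all genes that rose. Scaled, all 5 lay between -0.35 and -0.05. UBE2V1 was 1.96 ± 0.114 times UBE2N in PBS libraries, 1.80 ± 0.242 times with FBMSC_EV and 2.19 ± 0.526 times with ABPC_EV (SD, n = 3), which differ by less than their spread. UBE2V2 rose by 0.99 (adjusted p = 0.00789), on 16 to 76 reads per library, and missed the threshold without ABPC_EV replicate 3 (0.72, adjusted p = 0.052). UBE2S, which extends chains for the mitotic ligase APC/C, was tested, while UBE2C, which starts them, was not.

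UBE2G1, UBE2G2, UBE2J1 and UBE2J2, the E2 enzymes of protein disposal at the endoplasmic reticulum, all rose as deposited. Their changes were 1.45 to 1.60, beside the 90.9% of all genes that rose. Scaled, they lay between -0.28 and 0.00. UBE2G1 had the narrowest spread of the 30 tested members, with 1.36 times as much in its highest as in its lowest library after scaling. UBE2J1 was less even, at 7.30, 7.22 and 14.0 scaled under PBS, 6.09, 6.83 and 10.6 under FBMSC_EV and 11.9, 6.11 and 5.27 under ABPC_EV. PBS replicate 3 was its highest library.

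UBE2F, UBE2L6 and UBE2M, which carry other modifiers, rose as deposited, by 1.17 to 1.75, beside the 90.9% of all genes that rose. Their scaled changes ran from -0.59 to -0.08. UBE2F and UBE2M both carry NEDD8, which activates cullin ligases. UBE2F came next after the 3 reticulocyte E2 enzymes in the order of scaled changes, at -0.59 (SE 0.27, 95% interval -1.20 to 0.03, adjusted p = 0.505), with scaled values of 11, 8.44 and 5.27 under PBS, 5.41, 5.47 and 6.75 under FBMSC_EV and 7.09, 3.94 and 4.24 under ABPC_EV. UBE2M had -0.37 (adjusted p = 0.616). The E2 enzyme of ISG15, UBE2L6, is an interferon-induced gene. Its change was -0.08 scaled (95% interval -0.69 to 0.53) after a rise of 1.75 as deposited.

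The comparison of FBMSC_EV with PBS asks the same of the other vesicles and shares its PBS libraries with the first. As deposited 0 of 30 members passed, where 0.255% of all genes rose and 0.00944% fell. An unadjusted p under 0.05 by limma was reached by 14 of the 30, and by 4637 of all 10596 genes. All 30 changes were positive, as were 10291 of all 10596 genes, with a median of 0.72 against 0.70 for all genes. For 19 of the 30 every FBMSC_EV library lay above every PBS library (50.9% of all genes; 0.0849% lay wholly below). Without PBS replicate 3, 17 of the 30 passed as higher, when 43.3% of all genes did. With a filter of at least 5 in 3 libraries 1 member passed, against 15.4% of all genes, and 1 passed with only the 2 groups fitted, against 9.95%. UBE2L6 had the smallest p, from 4.28, 3.40 and 6.94 under PBS to 11.6, 19.7 and 14.9 under FBMSC_EV, a log2 change of 1.5 (SE 0.41, adjusted p = 0.0842). It rose past the threshold without PBS replicate 3 (1.74, adjusted p = 0.0327).

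Scaled, UBE2L6 stood at 13.1, 7.34 and 9.17 under PBS, 11.9, 16.6 and 15.8 under FBMSC_EV and 7.12, 12.7 and 8.10 under ABPC_EV. PBS replicate 1 lay above FBMSC_EV replicate 1, and the log2 change was 0.56 (95% interval -0.05 to 1.16, adjusted p = 0.997). After scaling 0 members passed, and the background was 0 in both directions. An unadjusted p under 0.05 was reached by 0 members by limma, beside 512 of all 10596 genes. By limma-voom it was reached by 0 members, beside 446 of 10594 genes. UBE2O had the lowest scaled change, -0.59 (95% interval -1.53 to 0.35), ahead of UBE2F at -0.38. UBE2H had -0.18 and UBE2B -0.25 (adjusted p = 0.999 for both). Only UBE2E1 of the 30 had no overlap between the scaled libraries, lower in all FBMSC_EV than in all PBS libraries, against 4.71% of all genes, and 0 were higher (4.96%). With red cell genes removed, where all genes had a median of 0.42, UBE2H had 0.24, UBE2B 0.16 and UBE2O -0.19, all below that median.

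Between the 2 kinds of vesicles, 0 of 30 members passed as deposited, where 0.585% of all genes were higher under ABPC_EV and 0.0566% lower. An unadjusted p under 0.05 by limma was reached by 11 of the 30, and by 5120 of all 10596 genes. The median log2 change was 0.72, against 0.71 for all genes. All ABPC_EV libraries were above all FBMSC_EV libraries for 17 of the 30 (50.5% of all genes; 0.17% were wholly below). Without ABPC_EV replicate 1, 13 of the 30 passed as higher, when 45.6% of all genes did, UBE2Z and UBE2V1 with the highest change (1.31 each). With the replicate number of the labels as a block, 4 passed as higher, against 32.0% of all genes.

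Scaled, 0 passed, with a background of 0 in both directions. An unadjusted p under 0.05 was reached by 1 member by limma, beside 569 of all 10596 genes. By limma-voom it was reached by 2 members, beside 642 of 10594 genes. The lowest changes were those of UBE2O at -0.77 (95% interval -1.71 to 0.17, adjusted p = 0.934), UBE2H at -0.64 (-1.29 to 0.02, adjusted p = 0.924), UBE2L6 at -0.63 (-1.24 to -0.03, adjusted p = 0.924) and UBE2D1 at -0.61 (-1.25 to 0.03, adjusted p = 0.924). UBE2B had -0.39 (-1.05 to 0.27). All ABPC_EV libraries lay below all FBMSC_EV libraries for UBE2H, UBE2O, UBE2B and UBE2D1, 4 of the 30 members (13.3%), against 6.80% of all genes, and UBE2V1 was higher in all (4.23%). UBE2D1, a close relative of UBE2D3, stood at 5.54, 3.24 and 3.22 under FBMSC_EV, 2.26, 1.82 and 2.55 under ABPC_EV and 5.37, 2.41 and 2.16 under PBS.

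**Figure D4:**
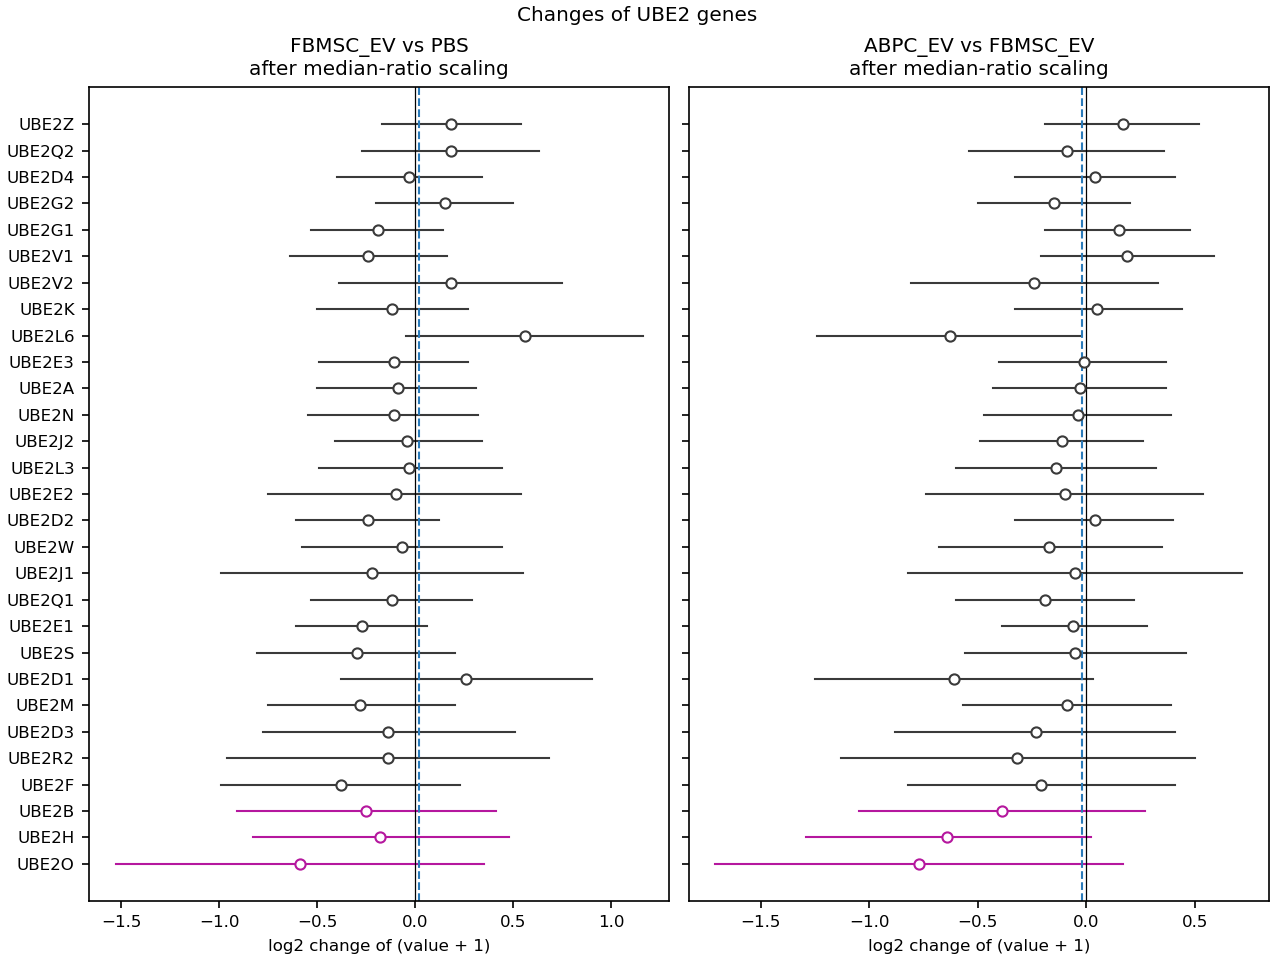
Scaled log2 change of (value + 1) for 29 of the 30 tested UBE2 genes between FBMSC_EV and PBS (left) and between ABPC_EV and FBMSC_EV (right), with 95% intervals, in the gene order of the ABPC_EV against PBS plot. Open points did not pass an adjusted p of 0.05, magenta marks UBE2H, UBE2O and UBE2B, and the dashed line is the median of all genes tested. UBE2L6 had 0.56 on the left and -0.63 on the right, and UBE2O had -0.59 and -0.77.

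The partners of the family were read from fixed lists, and each count as deposited stands beside the 90.9% of all genes that rose in this comparison. Of 9 E1 enzymes, all 9 rose under ABPC_EV against PBS as deposited, and scaled 7 changes were positive and 2 negative, from -0.46 for ATG7, the activator of autophagy modifiers, to 0.42 for UBA2, a subunit of the SUMO activator. UBA1, the main activator of ubiquitin, had 0.08 scaled. Of 10 genes for ubiquitin and related modifiers, 8 rose as deposited (background 90.9%). UBB, which encodes ubiquitin as a repeat, was not among them (log2 change 0.25, adjusted p = 0.656). It had the lowest scaled change of this list, -1.79 (adjusted p = 0.449), below that of UBE2O. SUMO2, with 1.87, had the smallest p among those that rose.

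The CTLH ligase, with which UBE2H works, had 10 of 11 listed genes higher as deposited (background 90.9%) and 0 past the threshold scaled, with a scaled median of -0.05. RMND5A, 1 of the 2 alternative RING subunits beside MAEA, was the exception as deposited (0.48, adjusted p = 0.282) and the lowest scaled (-1.44, SE 0.41, adjusted p = 0.245), followed by RANBP10 (-0.97, adjusted p = 0.485). Its relative RMND5B had 0.25 and MAEA 0.11 scaled. UBE2H itself, at -0.81, lay above both RMND5A and RANBP10 and below the scaled median of the ligase. E2 and E2-like enzymes without the UBE2 name had 7 of 7 tested genes higher as deposited (background 90.9%). Scaled, CDC34, which acts with cullin ligases, had -0.92 (adjusted p = 0.327), UFC1, the E2 enzyme of UFM1, -0.70 (adjusted p = 0.161), and BIRC6, a very large E2 enzyme that inhibits cell death, 0.44 (adjusted p = 0.546).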

How the data were processed

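The authors deposited log2 values, 1 column per library; per the submitters' processing notes the genome build was Mmul_10. Sources used here name no aligner, counter or annotation. The lowest value (-1.000001) and the column totals fit a per-million value plus 0.5. This was undone, and whole reads were recovered for 21544 of 21551 genes above 0 in 2 or more libraries (99.968%, tolerance 0.001 reads); HBB and HBA were not recovered. Tests used limma's trend method (limma 3.58.1, R 4.3.3). They took log2(value + 1), kept the 10596 genes that reached 1 in 3 or more samples, and had all 9 samples in 1 fit with group as the only term. The code was tested on simulated data. A fold change on that scale understates low genes. Animals are separate per the series design. Members, lists and tests were chosen with earlier results of these data known. By rule, members given in every library are UBE2H, UBE2O, UBE2B, the 3 highest and lowest scaled changes and the highest level. UBE2L6, UBE2J1, UBE2F and UBE2D1 were added after their values were seen. A member and a listed partner gene that this rule or the lists cover are not reported here. Alternatives are in the closing section. No coordinates or sequences are given. Of 35 names, 34 are in a RefSeq table of another assembly.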

Additional observations from a re-analysis of the deposited data

How the results depend on the processing

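Of 252 recomputed log2 changes of UBE2H, UBE2O and UBE2B, 245 kept their direction and side of the threshold. In the main fits only UBE2H and UBE2B as deposited, under ABPC_EV against PBS, were past the threshold. All other changes count as kept if they stay short of it with the same sign, so the count says little about how firm they are. The signs that turned, none of them past the threshold, were UBE2B under ABPC_EV against PBS (0.10) and UBE2H and UBE2B under FBMSC_EV against PBS (0.24 and 0.16) with red cell genes removed, a rescaling that shifts the median of all genes to 0.74 and 0.42 and leaves these values below it, and UBE2O as deposited under ABPC_EV against FBMSC_EV (-0.07 without FBMSC_EV replicate 1 and also without ABPC_EV replicate 3; range with each library left out -0.07 to 0.27). With each library left out, members called as deposited ranged from 27 to 29 (ABPC_EV against PBS), from 0 to 17 (FBMSC_EV against PBS) and from 0 to 13 (ABPC_EV against FBMSC_EV). After scaling they ranged from 0 to 1 in the first comparison and were 0 in the others. Scaled member medians ranged from -0.22 to -0.15, from -0.16 to -0.06 and from -0.16 to -0.02 in that order. The reticulocyte E2 difference ranged from -0.79 to -0.26, from -0.38 to 0.15 and from -0.49 to -0.31. In FBMSC_EV against PBS as deposited, 1 member passed with a filter of at least 5 and 1 with only the 2 groups fitted; the cause was not tested. The replicate block gave 4 members in ABPC_EV against FBMSC_EV as deposited, and changed no other count of members. Same-numbered libraries come from different animals and their deviations correlated from -0.25 to 0.28, so the numbers were not taken to pair them. UBE2E2, UBE2V2 and the members not tested rest on few reads.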
